A study of Homo sapiens with 2 samples.

Results

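The genes ITGA4, ITGB8, COL5A1, TNC, LAMA4 and COL6A3 encode integrin subunits and proteins of the extracellular matrix, and they were taken by symbol from a table of transcripts measured in A549 cells with and without NAT10. These 6 genes were all found, among 1415 genes in the table. A549 is an established line of human lung adenocarcinoma, and NAT10 is the enzyme that acetylates cytidine in RNA to N4-acetylcytidine (ac4C). The control library came from A549 cells with intact NAT10. The knockout library came from a single-cell clone in which CRISPR/Cas9, with a pair of guides on the fifth exon, had deleted part of NAT10 on both alleles, as the study describes it, and its label reads NAT10 ko1. Each group had 1 library of total RNA, so clone and knockout cannot be told apart and no difference below has a replicate check.

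Integrins are heterodimers of an alpha and a beta chain that span the membrane and tie the matrix outside the cell to the actin cytoskeleton. The alpha chain does much to set which ligand is bound, and the beta chain recruits talin and other adaptors to its cytoplasmic tail. Fibrillar collagens carry tension, laminins build the basement membrane on which epithelium sits, and matricellular proteins such as tenascin-C modulate the attachment of cells rather than bear load. In carcinoma, changes in these receptors and ligands go along with detachment, invasion and growth at new sites.

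The study cites literature in which ac4C on mRNA usually lies in repeats of a cytidine followed by a pair of any bases, so the longest such repeat in the coding sequence of each gene is shown to compare the 6 genes by this feature. The sequences are those of GENCODE release 29 on GRCh38, 5′ to 3′ on the sense strand, and capitals mark the repeated cytidines.

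ITGA4: CggCcgCccCtaCaaCgt

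ITGB8: CttCagCagCagCcc

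COL5A1: CtaCtaCgaCccCtaCtaCgaCccCacCag

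TNC: CatCaaCatCccCcgCcg

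LAMA4: CaaCgcCacCatCtaCctCctCaa

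COL6A3: CctCcgCagCcaCtcCtgCacCtcCag

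The ITGA4 repeat lies in exon 1 (chr2:181457744-181457761, plus strand) and the ITGB8 repeat in exon 11 of 14 (chr7:20404697-20404711, plus strand). That of COL5A1 lies in exon 8 of 66 (chr9:134731576-134731605, plus strand) and runs on to 12 units, of which the first 10 are printed. The TNC repeat is in exon 2 (chr9:115090693-115090710, minus strand), that of LAMA4 in exon 8 (chr6:112187451-112187474, minus strand) and that of COL6A3 in exon 10 (chr2:237368593-237368619, minus strand). No measurement of ac4C at these positions was used here.

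Levels are given as RPKM, reads scaled by exon length and library size, which allows genes to be compared with each other. Whole reads could be recovered from RPKM and exon length for 1342 genes, the 6 included, with an effective library size of 6077933 reads (control) and 5474964 reads (knockout). The table had been limited by the authors to genes that passed their thresholds on fold change and p-value, so that each gene in it differs by about 2-fold or more by construction, and its lower or higher value is a description. NAT10 itself was not analysed here, and directions rest on the labels. Of 10 epithelial markers only CDH1, the gene for E-cadherin, was listed, at 8.82 RPKM in the control and 3.76 in the knockout. Of 10 fibroblast markers THY1 and COL1A1 were listed, with a summed level of 1.34 RPKM in the control and 0.562 in the knockout, and of 8 endothelial and 8 leukocyte markers 0 were listed. Markers outside the table were not analysed here.

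In the knockout 4 of the 6 genes were lower, against 57.0% of all genes of the table, and 2 of the 6 were higher, against 43.0%. The receptors were split, with ITGA4 higher and ITGB8 lower. The matrix proteins were split as well, with COL5A1, TNC and LAMA4 lower and COL6A3 higher. Intervals below are 95% intervals that cover the counting error of reads only, exact Poisson for a level and Clopper-Pearson for a ratio. On that error the ratio was wholly below no change for 3 of the 6 (ITGB8, COL5A1 and TNC), against 39.0% of the genes with whole reads, and wholly above it for 1 (ITGA4), against 33.4%. LAMA4 and COL6A3 had intervals that included no change, although both had passed the authors' thresholds to be in the table. These shares are high because the table was selected for difference. That selection also favours levels whose intervals do not overlap between the libraries, and the share of such genes in the table was not computed. In RNA from whole cultures, fewer cells that express a gene and less RNA per cell cannot be told apart.

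**Figure D1:**
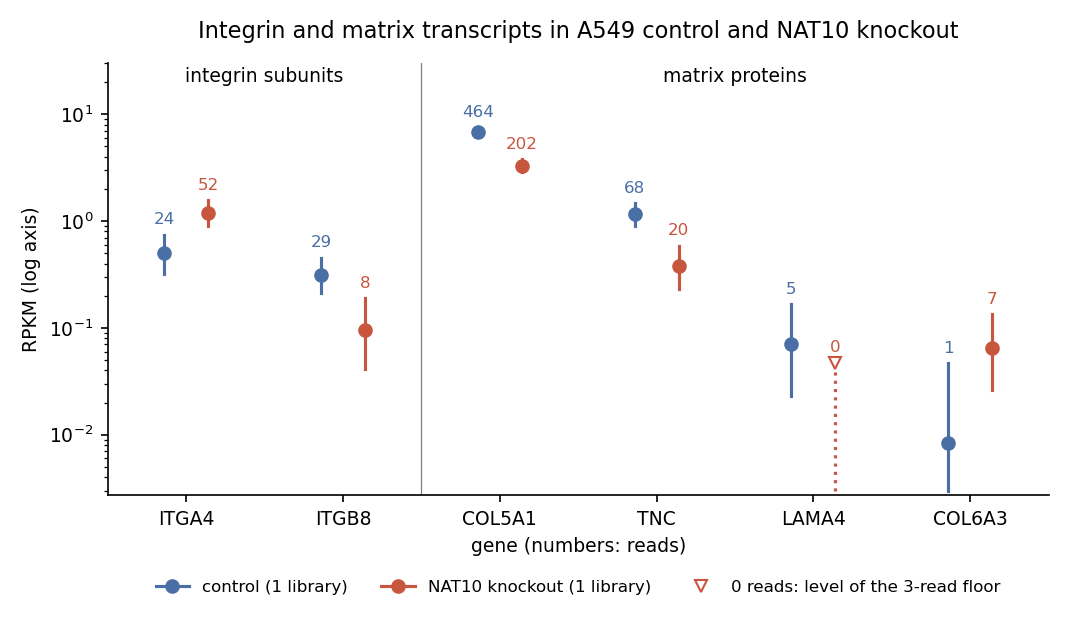
RPKM on a log axis for the 6 genes in the control (blue) and NAT10 knockout (red) libraries, 1 library each, with exact Poisson 95% intervals of the reads as vertical lines and the reads printed above. The lines of the 2 libraries do not overlap for ITGA4, ITGB8, COL5A1 and TNC, whereas LAMA4 and COL6A3 rest on 5 and 8 reads in all. The selection of the table favours such gaps, and their share over all listed genes was not computed. The line of COL6A3 in the control is cut by the axis. The triangle of LAMA4 marks 3 reads, the limit set for a count of 0 in place of an exact Poisson limit.

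ITGA4 (ENSG00000115232, chromosome 2, 181457202 to 181536187, plus strand) encodes the alpha-4 chain, which pairs with the beta-1 or beta-7 chain and binds VCAM1 and fibronectin. It is best known from leukocytes. ITGA4 had 0.4998 RPKM in the control (0.320 to 0.744, from 24 reads) and 1.20 RPKM in the knockout (0.898 to 1.58, from 52 reads). The knockout library was the higher one and the intervals of the 2 libraries did not overlap. The read ratio of ITGA4 was 2.41-fold, with an interval from 1.46 to 4.08. It was the single member with more reads in the knockout that had over 20 reads in both libraries together.

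ITGB8 (ENSG00000105855, chromosome 7, 20330702 to 20415754, plus strand) encodes the beta-8 chain, which pairs with the alpha-V chain to a receptor for latent TGF-beta. ITGB8 had 0.315 RPKM in the control (0.211 to 0.452, from 29 reads) and 0.0964 RPKM in the knockout (0.0416 to 0.190, from 8 reads). The control was higher, without overlap of the intervals. ITGB8 was 3.27-fold lower in the knockout, with an interval from 1.46 to 8.27. An antisense RNA, AC004130.1, shares 98 bases with the exons of ITGB8 (0.647% of their length) and was listed too, with 6 control reads and 0 knockout reads. How reads were assigned to strands is not given in the sources used here, so the reads of ITGB8 and AC004130.1 in the shared bases cannot be told apart.

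The integrin family was described through all 26 subunits, of which 5 were in the table, 2 higher and 3 lower, against 57.0% lower among all listed genes. ITGA1, the alpha chain of a receptor for collagens and laminins, counted 9 control reads against 25 knockout reads, an interval of the log2 ratio from 0.48 to 2.91. ITGB3, the beta chain of the alpha-V beta-3 and platelet integrins, had 10 and 1 reads (-8.61 to -0.36). ITGB2, the beta chain of leukocyte integrins, had 18 and 7 reads, and its interval from -2.71 to 0.12 included no change. The 2 alpha chains listed were thus higher in the knockout and the 3 beta chains lower. This split was noticed after the values had been seen and rests on 5 genes. The other 21 subunits were not analysed here.

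COL5A1 (ENSG00000130635, chromosome 9, 134641774 to 134844843, plus strand) encodes the alpha-1 chain of type V collagen, which starts the assembly of type I collagen fibrils and limits their diameter. It was the most abundant of the 6 genes. COL5A1 had 6.82 RPKM in the control (6.22 to 7.47, from 464 reads) and 3.30 RPKM in the knockout (2.86 to 3.79, from 202 reads). The levels were well apart on counting error, and COL5A1 was 2.07-fold lower in the knockout, with an interval from 1.75 to 2.45. Its mean level stood at percentile 91.2 of the table, and it gave 75.7% of the reads of the 6 genes together. The sum over the 6 genes, 591 control reads and 289 knockout reads, had a log2 ratio of -0.88 (-1.09 to -0.68). Without COL5A1 that ratio was -0.395, with an interval from -0.81 to 0.01 that included no change.

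TNC (ENSG00000041982, chromosome 9, 115019578 to 115118257, minus strand) encodes tenascin-C, a large glycoprotein of healing wounds and tumour stroma. TNC had 1.16 RPKM in the control (0.902 to 1.47, from 68 reads) and 0.379 RPKM in the knockout (0.232 to 0.586, from 20 reads). The intervals did not overlap, and TNC was 3.06-fold lower in the knockout, with an interval from 1.84 to 5.32. DEC1 on the other strand overlaps 129 exon bases of TNC (1.34%) and was not analysed here.

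LAMA4 (ENSG00000112769, chromosome 6, 112108760 to 112254939, minus strand) encodes the laminin alpha-4 chain, found mainly in basement membranes of vessels and muscle. LAMA4 had 0.0711 RPKM in the control (0.0231 to 0.166, from 5 reads), and its knockout value was 0. The limit set for it, 3 reads rather than an exact Poisson limit, was 0.0473 RPKM. The knockout was the lower library, but the interval of the log2 ratio, open below, reached up to 0.28. On this interval a fall of LAMA4 was therefore not detectable at this depth, although the gene had passed the authors' thresholds. Z99289.1, an antisense RNA, shares 206 bases with the exons of LAMA4 (1.78% of their length) and was not analysed here.

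COL6A3 (ENSG00000163359, chromosome 2, 237324003 to 237414375, minus strand) encodes the alpha-3 chain of type VI collagen, which forms beaded microfibrils around cells. COL6A3 had 0.00838 RPKM in the control (0.000212 to 0.0467, from 1 read) and 0.0651 RPKM in the knockout (0.0262 to 0.134, from 7 reads). The read ratio was 7.77-fold higher in the knockout, and the interval of its log2 value ran from just under 0 up to 8.45, so that it included no change. LAMA4 and COL6A3 stood at percentiles 0.283 and 0.353 of the table by mean level.

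The order of levels differed between the libraries. In the control the order from high to low was COL5A1, TNC, ITGA4, ITGB8, LAMA4 and COL6A3, and the intervals of ITGA4 and ITGB8 overlapped, as did those of LAMA4 and COL6A3. In the knockout ITGA4 stood above TNC, with no overlap, and COL6A3 came before LAMA4, whose limit of 0.0473 RPKM overlapped the interval of COL6A3. The interval of ITGB8 in the knockout overlapped that of COL6A3 and reached below the limit of LAMA4 as well.

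**Figure D2:**
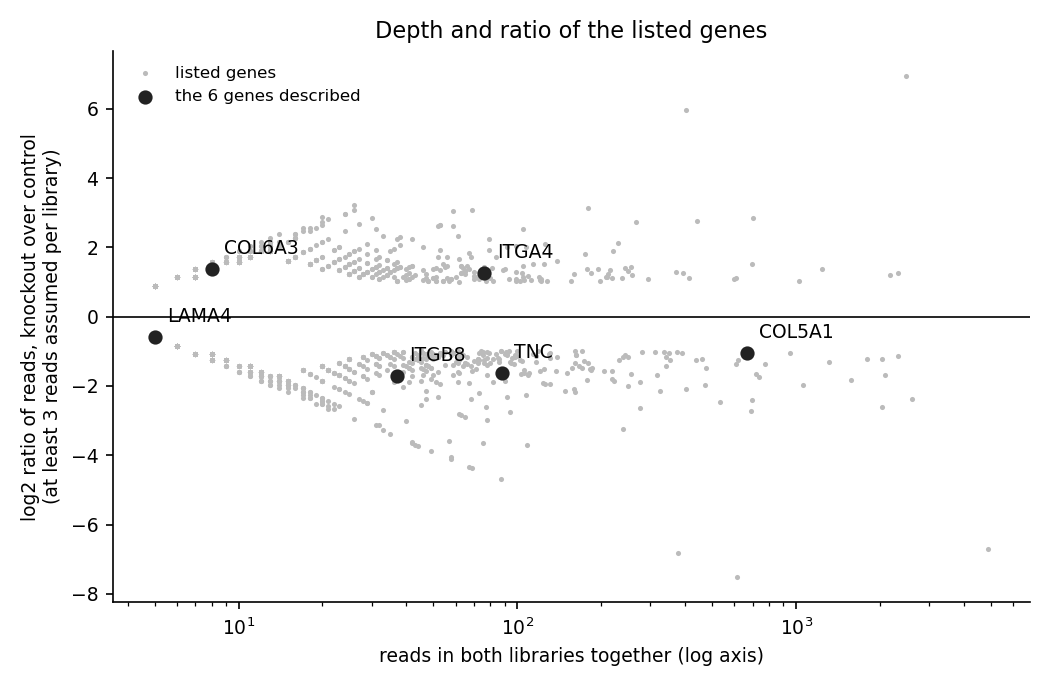
Reads in both libraries together (log axis) against the log2 ratio of knockout over control, with each library set to at least 3 reads, for the listed genes with whole reads (grey) and the 6 genes (black, named). The empty band around 0 at higher reads is the threshold of the table, and COL5A1, with 666 reads, is the only one of the 6 far to the right.

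The next comparison asked which receptors and ligands moved apart. The ratio of one gene to another within a library needs no scaling to library size, and its change between libraries was given as an odds ratio of reads with an exact conditional 95% interval. All 15 pairs of the 6 genes were compared, and intervals were not adjusted for the number of pairs. ITGA4 was 1.59 times ITGB8 by RPKM in the control and 12.5 times in the knockout, an odds ratio of 7.69 (2.91 to 22.5). The ratio of ITGA4 to TNC went from 0.430 to 3.17, an odds ratio of 7.26 (3.49 to 15.7). Against COL5A1 it went from 0.0732 to 0.365, an odds ratio of 4.96 (2.91 to 8.67). ITGA4 was higher, while the other receptor subunit and both of the better measured matrix genes were lower. Since the table holds only changes of about 2-fold or more, a higher and a lower gene in it lie apart by construction. These odds ratios are therefore a description.

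Genes that were lower together were not separated from each other. The odds ratio of ITGB8 to TNC was 0.938 (0.319 to 2.55), that of ITGB8 to COL5A1 0.634 (0.246 to 1.45) and that of COL5A1 to TNC 1.48 (0.860 to 2.64). Each of these intervals included no change. COL6A3 against ITGB8, COL5A1 and TNC gave odds ratios of 0.0431 to 0.0624 for the partner over COL6A3, all resting on 1 control read. In all, 8 of the 8 pairs of a higher and a lower gene had an interval without 1, as the selection of the table favours, and the 7 pairs of like direction did not. The share of such pairs over all listed genes was not computed. Among the 8, only the pairs of ITGA4 with ITGB8, TNC and COL5A1 did not involve LAMA4 or COL6A3, which had 5 and 8 reads in all. ITGA4 to LAMA4 had an interval from 1.8 and open above, and LAMA4 to COL6A3 one from 0 to 0.497.

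None of these pairs is a receptor with its main ligand, since the classical ligands of the alpha-4 chain are VCAM1 and fibronectin. VCAM1, named here after its values had been seen, counted 6 control reads against 0, opposite to ITGA4, with the interval of its log2 ratio open below and reaching up to -0.08. EDIL3, a secreted ligand of the alpha-V beta-3 integrin, had 11 and 1 reads (-8.74 to -0.53), the same direction as ITGB3. COL1A1, the partner of type V collagen in mixed fibrils, had 30 and 12 reads (-2.27 to -0.16), the same direction as COL5A1. ITGA1 moved opposite to both collagens. FN1, the fibronectin gene, was not analysed here.

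On the log2(RPKM + 1) scale, where a pseudocount of 1 RPKM damps low genes, the values were 0.55 for ITGA4, -0.26 for ITGB8, -0.86 for COL5A1, -0.65 for TNC, -0.10 for LAMA4 and 0.08 for COL6A3. On that scale 0 of the 6 genes passed a change of 1 in size, against 19.4% of all genes of the table below -1 and 13.4% above 1. With a pseudocount of 0.1 RPKM, 3 of the 6 (ITGB8, COL5A1 and TNC) were below -1, against 50.8% of the table, and ITGA4 was above 1, against 39.3%. With 5 RPKM 0 of the 6 passed, against 3.18% below -1 and 1.48% above 1.

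Beyond the 6 genes, 8 lists of integrins, other receptors, matrix proteins and their modifiers held 262 genes, of which 27 were in the table. Of the 27, 20 were lower and 7 higher (74.1% lower, against 57.0% of all listed genes). The interval of the ratio was wholly below no change for 18 and wholly above it for 5, and TNXB had no interval. Among all genes with whole reads 39.0% were wholly below and 33.4% wholly above, in a table selected for difference. The 27 genes had a median log2(RPKM + 1) ratio of -0.31, and all listed genes one of -0.32. On reads against a floor of 3 per library the medians of the log2 ratio were -1.15 and -0.85. The study drew the theme of adhesion from these libraries, so the lists are not independent evidence of a direction.

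Among 44 collagen chains 5 were listed, 2 higher and 3 lower, again against 57.0% lower in the table. COL21A1, a small collagen associated with fibrils, had 35 and 11 reads (log2 interval -2.65 to -0.51) and lay on the same side as COL5A1 and COL1A1. COL6A6, another chain of type VI collagen, counted 0 control reads and 5 knockout reads, the same direction as COL6A3 and on as few reads. Of 21 laminin chains and basement membrane genes 2 were listed and they moved apart. LAMC3, the laminin gamma-3 chain, was higher in the knockout with 14 and 42 reads (0.83 to 2.72), opposite to LAMA4.

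Of 61 tenascins and other glycoproteins 9 were listed, 7 lower and 2 higher (77.8% lower, against 57.0% of all listed genes), with a median of -0.31 on the log2(RPKM + 1) scale, against -0.32 for all listed genes. SMOC1, a calcium-binding protein of basement membranes, had 90 and 17 reads (-3.10 to -1.50). FGA, the fibrinogen alpha chain, had 23 and 8 reads (-2.74 to -0.16). FBLN5, a protein of elastic fibres, was higher with 3 and 13 reads (0.40 to 4.72). TNXB, a tenascin like TNC, had 0.0527 RPKM in the control and 0.199 in the knockout and so lay opposite to TNC, but its reads were not recovered and it has no interval.

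**Figure D3:**
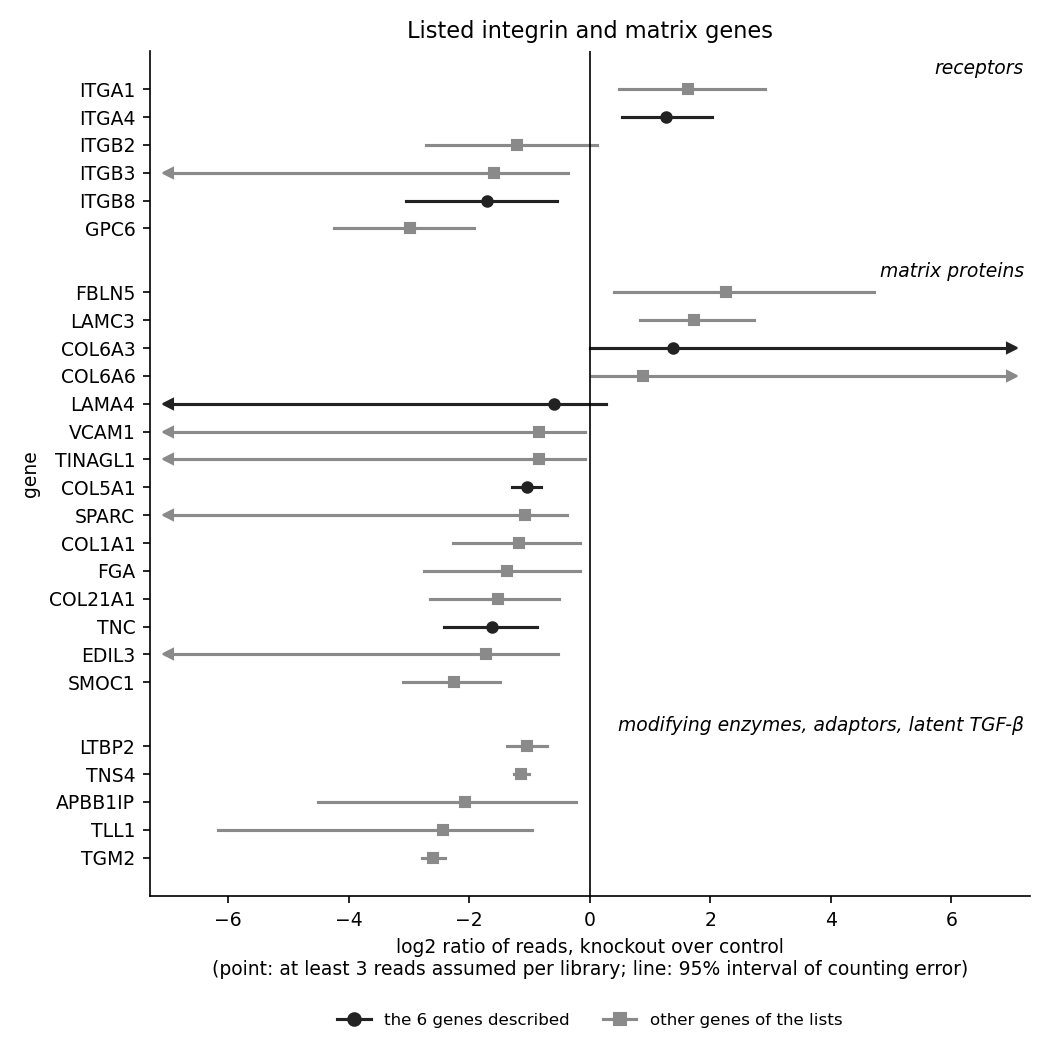
Log2 ratio of reads, knockout over control, for the 6 genes (black circles) and the other listed genes of the lists with whole reads (grey squares), with lines for the 95% interval of counting error and arrows where it leaves the axis. Points assume at least 3 reads in each library. ITGA1 and ITGA4 lie to the right of 0 and the 3 beta chains to the left, and the 5 enzymes, adaptors and latent TGF-beta proteins at the foot all lie to the left.

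Of 30 genes of collagen and matrix modification 2 were listed, and of 40 integrin adaptors and latent TGF-beta genes 3 were. These 5 were lower in the knockout, against 57.0% of all listed genes, with intervals wholly below no change, against 39.0% of the genes with whole reads, and so few genes carry no statement on the group. TGM2, which crosslinks matrix proteins, had 1771 and 264 reads (-2.79 to -2.41). TLL1, a protease that trims procollagens, had 18 and 2 reads (-6.17 to -0.96). TNS4, a tensin that binds the tails of beta integrin chains, had 1642 and 674 reads (-1.27 to -1.004). APBB1IP, which links the GTPase RAP1 to talin, had 14 and 3 reads (-4.51 to -0.23). LTBP2, a relative of the proteins that hold latent TGF-beta in the matrix, had 244 and 107 reads (-1.38 to -0.70). GPC6, a glypican of the cell surface, had 70 and 8 reads (-4.25 to -1.92) and was the only one listed of 20 other matrix receptors. Of 20 matrix proteoglycans 0 were listed.

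Direction was also set beside position on the genome. Of all listed genes, 43.0% were higher in the knockout and 57.0% lower. On chromosomes other than 2, 6, 7 and 9 the share higher was 40.4%, and 37.6% among genes with at least 20 reads. Both higher genes, ITGA4 and COL6A3, lie on chromosome 2, where 87 of 114 listed genes (76.3%) were higher in the knockout. Among those with at least 20 reads 40 of 49 (81.6%) were higher. Within 2 Mb of COL6A3 the 5 other listed genes were all higher, among them SCLY with 27 and 50 reads. CERKL, 489 bases from ITGA4 on the other strand, was higher too, at 6 and 14 reads, with an interval of the log2 ratio from -0.10 to 3.04. Of the lower genes, LAMA4 lies on chromosome 6, with 65 of 87 listed genes lower (25.3% higher). ITGB8 lies on chromosome 7, with 42 of 62 lower (32.3% higher). FYN, the listed gene nearest to LAMA4, went the other way with 9 and 50 reads. COL5A1 and TNC lie on chromosome 9, where 24 of 63 listed genes were lower, and among those with at least 20 reads 14 of 28 were higher. Within 2 Mb of COL5A1 3 other genes were listed, 2 higher and 1 lower. Within the same distance ITGA4 and LAMA4 had 1 higher gene each, and ITGB8 and TNC 1 lower gene each. The part of chromosomal position in these values was not tested.

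The coding sequences differed widely in the cytidine repeats printed above. The motif counted was CNNCNNCNNCNN on the sense strand only, since it is read in the RNA, with N for any base and overlapping matches included. COL5A1 held 77 matches in 5514 coding bases, 14.0 per kb, the highest density of the 6. TNC held 8.48 per kb and COL6A3 8.29, although TNC was lower and COL6A3 higher. LAMA4 held 4.75 per kb, ITGB8 3.90 and ITGA4 3.23, the lowest. At least 1 match was present in 94.97% of all 19684 coding genes of the annotation, whose median was 9.19 per kb, so 5 of the 6 genes lay below the median. A run as long as the 12 units of COL5A1 was found in 6.22% of coding genes, and one as long as the 5 units of ITGB8 in 81.1%. The GC content of the coding sequence ran in the same order over the 6 genes, from 42.5% in ITGA4 to 64.4% in COL5A1. Listed genes lower in the knockout had a median of 10.7 per kb over 488 genes and those higher 11.1 over 307. A match is a string of bases and no evidence of ac4C at that site.

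**Figure D4:**
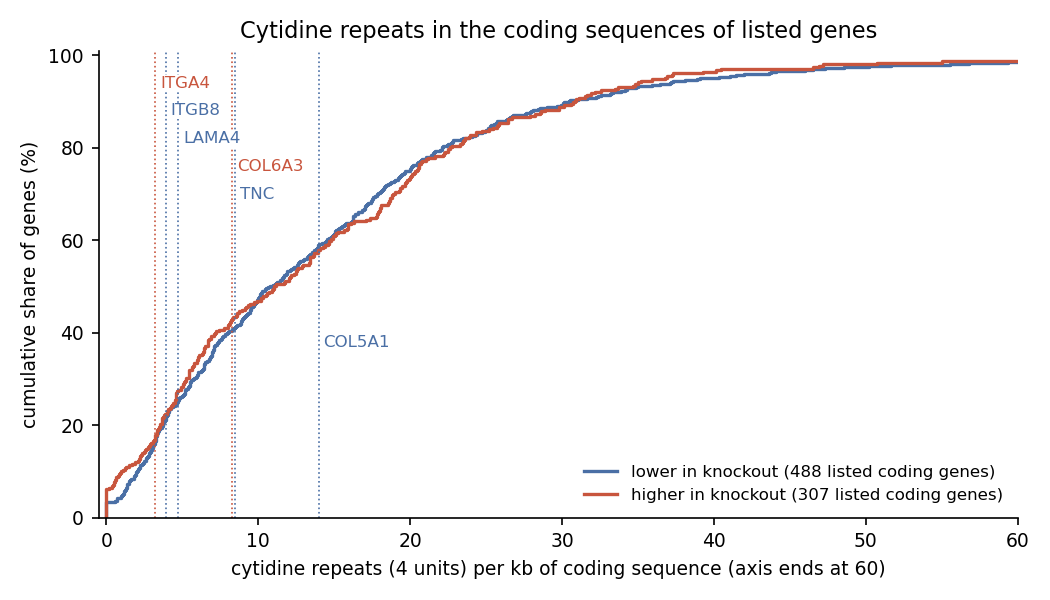
Cumulative share of listed coding genes against the number of cytidine repeats of 4 units per kb of coding sequence, for genes lower (blue) and higher (red) in the knockout, with dotted lines at the 6 genes in the colour of their direction. The 2 curves run close together, with medians of 10.7 and 11.1 per kb, and 5 of the 6 genes lie to the left of both medians. A few genes beyond 60 per kb are outside the axis.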

How the data were processed

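RNA was sequenced from A549 control cells and a NAT10 knockout clone, 1 library each, and the samples were grouped by their titles. The authors deposited RPKM per gene and library, on build hg38 per the submitters' processing notes. Further deposited columns hold the authors' log2 fold change, their p-value and its adjusted form, and none was used. Libraries were made from total RNA with a SMARTer mRNA-seq kit. The aligner, annotation, counter and strand setting are not given in the sources used here, and no column states the unit, which was taken from the values.

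Exon lengths of GENCODE release 29 were matched by Ensembl identifier for 1408 of 1415 genes. The library size was the value at which RPKM times length gave whole reads to within 0.01, which held in both libraries for 1342 genes (95.3% of those with a length). Lengths of the other genes may differ from those the authors used. Without molecular identifiers, the 95% intervals and the floor of 3 reads cover counting error only. With 1 library per group no test was run.

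Ratios used a pseudocount of 1 RPKM. Alternatives were pseudocounts of 0.1 and 5, minimums of 1 RPKM and 20 reads, and the reads themselves. The 6 genes and the lists were chosen with earlier results of these data known. Other genes named were up to 3 per list and direction with the largest log2(RPKM + 1) ratio and the nearest listed genes. VCAM1 fell outside this rule and was named after its values had been seen. The likeness of patterns was not computed, since 2 libraries give 1 ratio per gene. Cytidine repeats were counted in the longest coding sequence per gene, not in the whole mature transcript as first planned, and protein features were not computed. The scripts (Python 3.11.15, scipy 1.17.1) were tested on simulated data.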

Additional observations from a re-analysis of the deposited data

How the results depend on the processing

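The pseudocounts could not turn the direction of any of the 6 genes by their construction. Neither could the settings on reads, since they use the same counts. The shift of -0.15 without scaling is smaller than the ratio of any of the 6 genes on reads. The kept directions are therefore no check, and the settings bear only on the size of a ratio. Reads without scaling to library size, which shift every log2 ratio by -0.15, and the list medians on reads were chosen after seeing the data. On reads against a floor of 3 reads the log2 ratio of ITGB8 was -1.71 and that of TNC -1.61, and without scaling they were -1.86 and -1.77. These values differed by more than the counting error from those with a pseudocount of 1 RPKM. With a pseudocount of 0.1 RPKM TNC was at -1.40. COL5A1 was at -0.51 with a pseudocount of 5 RPKM and at -1.20 on reads without scaling. A pseudocount pulls low genes toward 0 by its construction. The counts of 274 lower and 189 higher genes beyond 1 became 719 and 556 with a pseudocount of 0.1 RPKM, 45 and 21 with 5 RPKM, and 125 and 64 with at least 20 reads. The median of the 27 list genes moved from -0.31 to -1.13 with a pseudocount of 0.1 RPKM and to -1.15 on reads against the floor, where all listed genes had -0.85. The other 21 values for the genes, counts and this median moved by less than the counting error, the spread within the lists or 1.5 times. No paired analysis was possible because each group had 1 library. Depth limits LAMA4 and COL6A3, at 5 and 8 reads, most.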
